A study of Mus musculus with 12 samples.

Results

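Osteoclasts remove bone and calcified cartilage, and the 7 genes described here encode effectors of that work: the enzymes Acp5 and Ctsk, the acid secretion genes Tcirg1, Clcn7 and Car2, the hormone receptor Calcr and the transcription factor Nfatc1. Their probe sets were taken as all those, other than controls, whose platform annotation gives exactly 1 symbol out of these 7, which found 13 probe sets of 36701. Of these, 8 were on array type A, 3 on B and 2 on C.

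The arrays measured total RNA from whole humeri of mouse embryos at E14.5. The groups were Runx2 -/- (Runx2-null below), with 2 pools of about 60 humeri each, and Runx2 wildtype (wild type below), with 2 pools of about 75 humeri each. RNA of each of the 4 pools was run on 3 array types, called A, B and C, which makes 12 arrays. The labels call the pools of a genotype biological replicates 1 and 2, and p-values cover no spread beyond these 4 pools. Strain, sex and the construction of the null allele are not given in the sources used here. Runx2 itself, not analysed here, gave no check of the labels.

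An osteoclast forms by fusion of cells of the monocyte and macrophage lineage, driven by the cytokines M-CSF and RANKL, with Nfatc1 as the transcription factor that switches on its gene programme. It seals off a patch of matrix and acidifies it: carbonic anhydrase II, from Car2, supplies protons, the vacuolar proton pump with the a3 subunit from Tcirg1 moves them out, and the chloride-proton exchanger from Clcn7 balances the charge. Cathepsin K, from Ctsk, then cuts collagen at acid pH, and tartrate-resistant acid phosphatase, from Acp5, is the classic stain for the cell. Osteoclasts are brought into the long bone with the blood vessels that invade its hypertrophic cartilage, a step that depends on Runx2 in skeletal cells.

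Promoter sequences are shown for the genes whose signals were lower, Ctsk and Acp5, and for Clcn7, whose signals were close in both genotypes. They are the 250 bases before a transcription start, written 5′ to 3′ on the gene's strand, from RefSeq on GRCm38.p6. The RefSeq table held 11 starts for 5 of the 7 genes. Capitals mark matches, on either strand, to any of 5 short motifs: the RUNX core TGTGGT, the AP-1 motif TGANTCA, the PU.1 motif GAGGAA, the NFAT motif TGGAAA and the E-box CACGTG read by MITF and TFEB.
Ctsk, chr3:95498960-95499209, + strand: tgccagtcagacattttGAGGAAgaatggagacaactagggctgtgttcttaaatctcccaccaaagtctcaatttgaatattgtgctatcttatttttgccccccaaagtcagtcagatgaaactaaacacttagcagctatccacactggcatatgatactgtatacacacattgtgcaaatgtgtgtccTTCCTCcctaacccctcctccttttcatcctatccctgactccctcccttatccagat
Acp5, chr9:22130599-22130848, - strand: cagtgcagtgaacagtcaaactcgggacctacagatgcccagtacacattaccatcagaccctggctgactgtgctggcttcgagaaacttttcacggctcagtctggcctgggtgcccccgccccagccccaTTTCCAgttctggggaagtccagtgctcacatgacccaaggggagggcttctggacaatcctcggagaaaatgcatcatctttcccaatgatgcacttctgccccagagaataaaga
Clcn7, chr17:25133141-25133390, + strand: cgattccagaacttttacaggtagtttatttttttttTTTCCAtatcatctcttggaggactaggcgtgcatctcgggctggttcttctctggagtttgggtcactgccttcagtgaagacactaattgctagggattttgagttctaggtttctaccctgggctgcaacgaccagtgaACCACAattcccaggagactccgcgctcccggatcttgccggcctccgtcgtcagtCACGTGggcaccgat

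The Ctsk window held the PU.1 motif at 2 places, which begin at positions -233 and -58 from the start, and none of the other motifs. The Acp5 window shown held the NFAT motif once, at position -117, and the windows of the other 2 Acp5 starts held none of the 5 motifs. Clcn7 had the RUNX core, the NFAT motif and the E-box, which begin at positions -71, -213 and -15 from the start shown. None of these matches overlapped another. Of all 32851 promoter windows of the same length, 14% held the RUNX core, 6.75% the AP-1 motif, 23.3% the PU.1 motif, 18.6% the NFAT motif and 6.02% the E-box. Among the 11 windows of these genes, 2 held the RUNX core, both of Clcn7, 0 the AP-1 motif, 2 the PU.1 motif, 2 the NFAT motif and 1 the E-box. A match to such letters is a description of the sequence and not a binding site.

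Signals are MAS5 values in arbitrary intensity units and can be set against each other only for 1 probe set across arrays of 1 type. Differences are Runx2-null minus wild type on the scale log2(signal + pseudocount), with pseudocounts of 7, 13 and 10 for A, B and C, which understates the change of dim probe sets. The medians of the 12 arrays were 37.7 to 60.4 units. On every array type the scanner settings split by replicate number, with a pixel size of 3 µm and 2 scans for replicate 1 and 2.5 µm and 1 scan for replicate 2, so each difference was also fitted in blocks of replicate number and taken within each number. Within array type A, arrays of the same number correlated at 0.959 and 0.960 and arrays of the same genotype at 0.915 and 0.912. Within B these were 0.928 and 0.910 for the same number and 0.842 and 0.846 for the same genotype. On array type C this was turned round, with 0.904 and 0.899 for the same labelled genotype against 0.853 and 0.857 for the same number. The 9 hybridisation controls, bacterial and phage transcripts added to every sample, were brighter in replicate 1 than in replicate 2 of either genotype on A and B, by median log2 differences of 1.01 to 1.65, while on C they were dimmer in the arrays labelled Runx2-null than in those labelled wild type, with median log2 differences of -1.12 in replicate 1 and -1.44 in replicate 2. The arrays of type C therefore go against their labels or their recorded scanner settings, which the sources do not settle, and their 2 probe sets are given apart, as labelled.

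**Figure D1:**
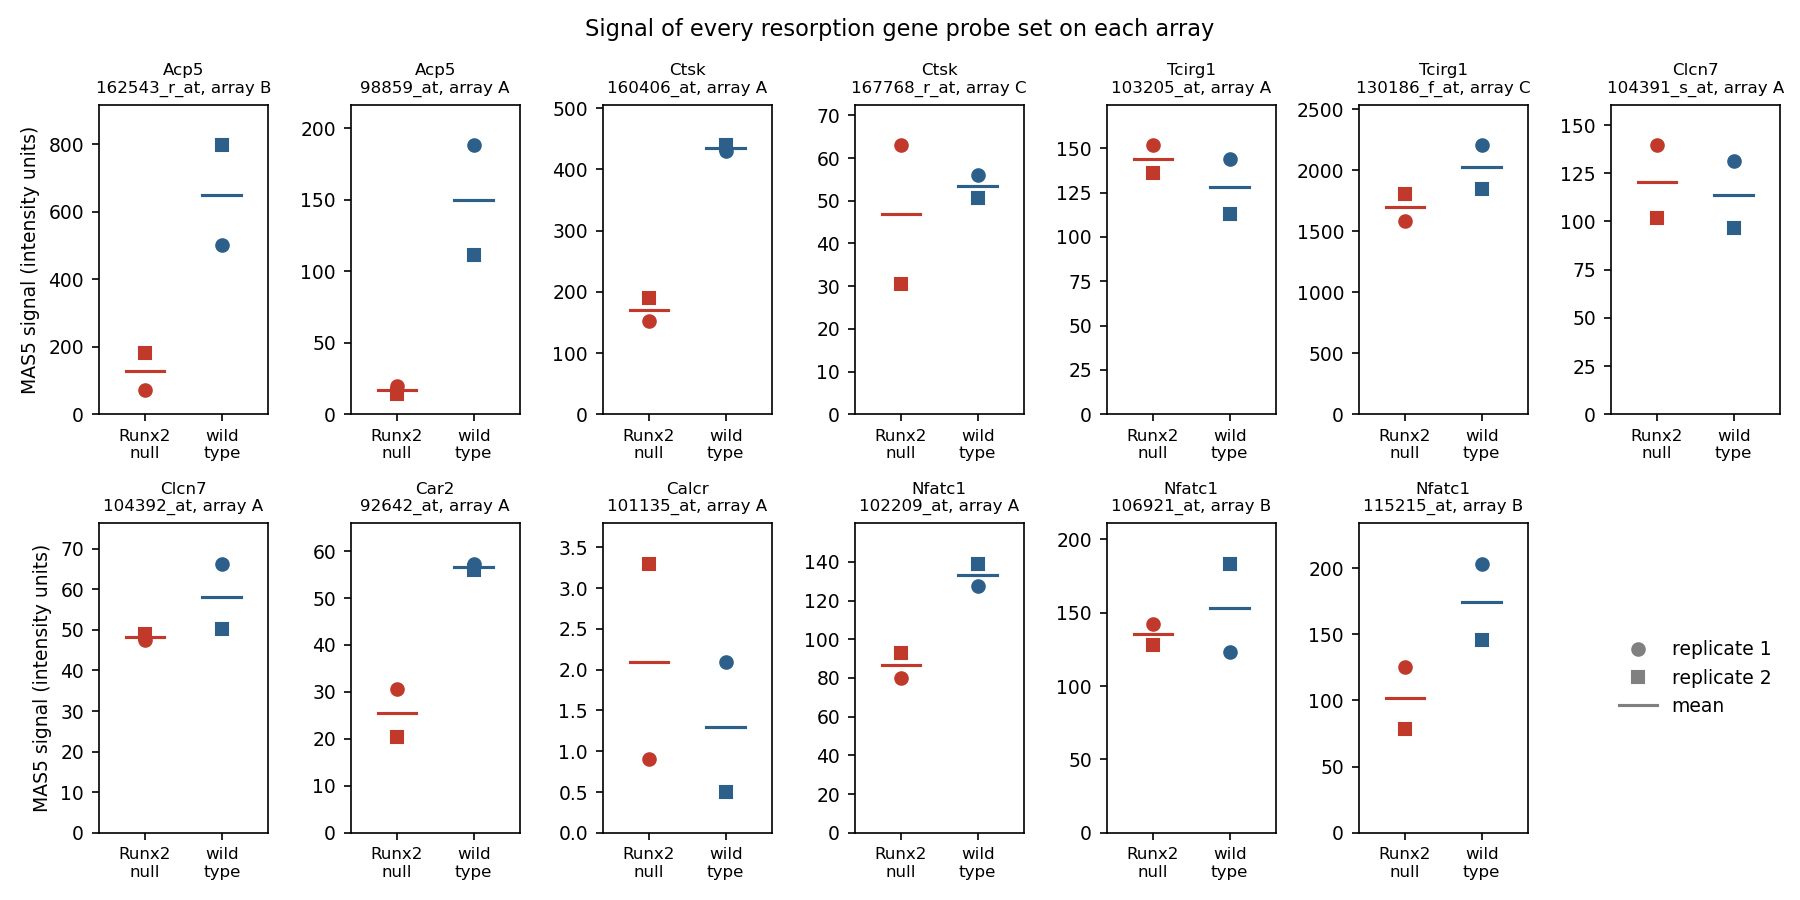
MAS5 signal in intensity units (vertical axis, from 0, a separate scale per panel) of the 13 probe sets on each array, for Runx2-null (red, left) and wild type (blue, right). Circles are replicate 1, squares replicate 2 and bars the means; Acp5 and the Ctsk probe set on array A have both Runx2-null signals far below both wild-type signals, while Tcirg1 and Clcn7 lie close in both genotypes.

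Acp5 and Ctsk, the 2 secreted enzymes, fell in the Runx2-null humeri, Acp5 to 0.114 and 0.196 of the wild-type mean signal on its 2 probe sets and Ctsk to 0.392. Car2 was at 0.451 of the wild-type mean and missed the threshold narrowly. Tcirg1 and Clcn7, the proton pump subunit and the exchanger, had differences whose intervals included 0. The planned limma fit had no block of replicate number, and none of these genes passed in it. Its adjusted p-values were 0.102 and 0.17 for Acp5 and 0.162 for Ctsk on array A. The words fell and rose are used here for an adjusted p under 0.05 in limma's fit with the replicate block on array types A and B.

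With that block, 3 of the 10 tested probe sets of these genes on A and B fell, 0 rose and 7 did not pass; over all 15601 tested probe sets there, 1.29% fell and 2.2% changed in either direction (1.22% and 2.18% with array type C included). Adjusted over A and B alone, without array type C, the unblocked p-values were 0.45 and 1 for Acp5 on A and B and 1 for Ctsk on A, and those 3 still passed with the block. Without the block, 0 of these 10 passed, beside 0.0256% of all (0.0259% with array type C included), and 5 of the 10 had an unadjusted p under 0.05 against 2.06% of all. With the block 6 of the 10 had one, against 14.8% of all. Both Runx2-null signals lay below both wild-type signals for 7 of the 10, against a background of 11.7%. They lay above both for 0 of the 10, against a background of 13.6%. The median difference of the 10 was -0.65, beside 0.01 over all tested probe sets. The 10 probe sets read only 6 genes in the same pools, so they are not independent. With 1 probe set per gene, 2 of the 6 fell, beside 1.48% of all genes. The median of the 6 was -0.56, beside 0.01 over all genes. The calls rest on the block and on limma's variance model. With the block, 1 residual degree of freedom is left per probe set, from how far the differences within the replicate numbers disagree. To it limma's prior adds 12.7 on array A and 7.74 on B. Without the variance trend, the 3 calls were lost even with the block, at adjusted p = 0.0523 and 0.0792 for Acp5 on A and B and 0.201 for Ctsk. A tissue RNA pool does not tell fewer cells of a type, such as osteoclasts, apart from less RNA of a gene per cell. Nor does it show which cells of the humerus a transcript came from. Both limits hold for every value below.

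For Acp5, the signal on array A (probe set 98859_at) was 19.9 and 14.2 in Runx2-null replicates 1 and 2, against 188.2 and 111.7 in wild-type replicates 1 and 2. Every Runx2-null array was dimmer than every wild-type array, and the groups were far apart. The difference was -2.67 (SE 0.20, 95% interval -3.11 to -2.23, adjusted p = 9.29e-06 in limma with the block, 0.102 without it). It was the 9th lowest of 7745 tested probe sets on array A. The Runx2-null signals reached down to the 33.2 percentile of their array. Probe sets were tested if over the 40th percentile of their array on at least 2 of 4 arrays. It was thus the wild-type arrays that brought this probe set into the test. No detection calls were used, so the size of the fall rests on dim signals.

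The second Acp5 probe set, 162543_r_at on array B, read 72.6 and 182.7 in Runx2-null replicates 1 and 2, against 502.9 and 797.4 in wild-type replicates 1 and 2. The groups again did not overlap, although the Runx2-null arrays differed from each other more than on array A. Its difference was -2.32 (SE 0.20, 95% interval -2.78 to -1.86, adjusted p = 8.99e-04 in limma with the block, 0.17 without it), the 4th lowest of 7856 on array B. Within replicate numbers 1 and 2 the Acp5 differences were -2.86 and -2.49 on array A and -2.59 and -2.05 on array B. The order of the 2 replicates was thus the same on both arrays, with the larger difference in replicate 1. The suffix _r marks a probe set for which the manufacturer relaxed its probe selection rules.

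Ctsk had signals of 152.1 and 189.2 in Runx2-null replicates 1 and 2 (probe set 160406_at, array A), against 430.3 and 439.5 in wild-type replicates 1 and 2. The wild-type arrays nearly coincided, and both Runx2-null arrays lay well below them, at signals still in the upper part of the array, at its 78.6 percentile or above. The difference was -1.32 (SE 0.12, 95% interval -1.57 to -1.08, adjusted p = 3.69e-05 in limma with the block, 0.162 without it), with -1.46 and -1.19 within replicates 1 and 2. It was the 42nd lowest of 7745 on array A. The second Ctsk probe set, 167768_r_at on array C, was dim, with 63.0 and 30.6 in the arrays labelled Runx2-null and 56.1 and 50.6 in those labelled wild type. These groups overlapped (difference -0.22, 95% interval -1.25 to 0.82 with the block), so this probe set did not separate the genotypes.

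**Figure D2:**
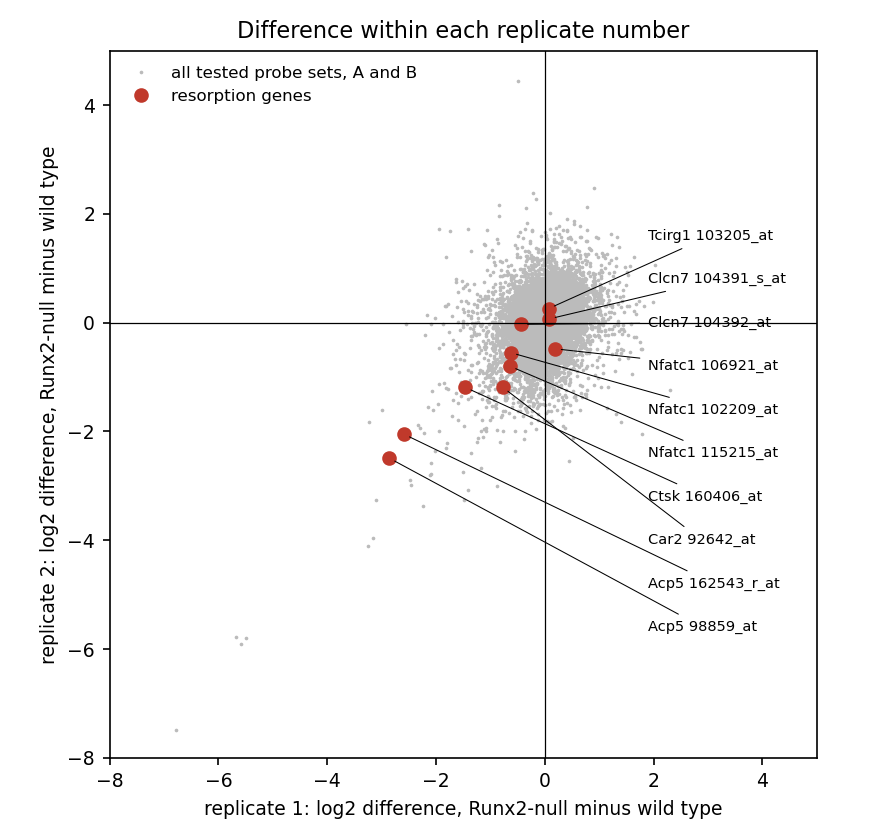
Each point is a tested probe set on array A or B; the axes give its log2 difference, Runx2-null minus wild type, in replicate 1 (horizontal) and replicate 2 (vertical). The 10 tested probe sets of the resorption genes are red and named: Acp5 and Ctsk lie below -1 in both replicates, with 0.532% of all 15601 probe sets, and Tcirg1 and Clcn7 lie near the origin.

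Those 3 probe sets of Acp5 and Ctsk were lower by at least 2-fold on the log2 scale in both replicate numbers. Of all 15601 tested probe sets on A and B, 83 were. The plot of differences within replicate numbers shows this corner beside the bulk of the array, with Car2 just outside it.

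Car2 made up part of the acid supply side. Its signals were 30.6 and 20.5 in Runx2-null replicates 1 and 2, against 57.3 and 55.9 in wild-type replicates 1 and 2 (probe set 92642_at, array A). The wild-type arrays were nearly equal and the groups did not overlap. The difference of -0.98 (SE 0.24, 95% interval -1.50 to -0.47) had an adjusted p = 0.0506 in limma with the block and 0.509 without it, so it did not pass, and it was -0.77 and -1.19 within replicates 1 and 2. With the block and a larger pseudocount, at the 40th percentile, it passed (difference -0.70, adjusted p = 0.0373). Car2 is also strongly expressed in red blood cells. The 8 tested erythroid markers on array A summed to 4081.5 and 2870.0 in Runx2-null replicates 1 and 2, against 4571.0 and 3239.5 in wild-type replicates 1 and 2; 0 of the 8 passed, and their part in the Car2 values was not tested.

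Tcirg1, whose product carries the proton pump to the ruffled border, gave 151.7 and 136.3 in Runx2-null replicates 1 and 2, against 143.7 and 112.8 in wild-type replicates 1 and 2 (probe set 103205_at, array A). The groups overlapped. The difference was 0.17 (95% interval -0.13 to 0.46, adjusted p = 0.589 in limma with the block). That interval lay wholly above that of Ctsk on the same array, -1.57 to -1.08. A far brighter probe set, 130186_f_at on array C, read 1586.4 and 1801.8 in the arrays labelled Runx2-null and 2203.6 and 1842.0 in those labelled wild type (difference -0.25, 95% interval -0.65 to 0.15). Its suffix _f marks probes shared by a sequence family, so its signal need not come from Tcirg1 alone.

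Clcn7 was likewise close in both genotypes. Probe set 104391_s_at on array A read 139.5 and 101.8 in Runx2-null replicates 1 and 2, against 131.4 and 96.4 in wild-type replicates 1 and 2 (difference 0.08, 95% interval -0.23 to 0.38, adjusted p = 0.837 in limma with the block). The arrays paired by number rather than by genotype here. The dimmer probe set 104392_at on the same array read 47.4 and 49.1 in Runx2-null replicates 1 and 2, against 66.3 and 50.1 in wild-type replicates 1 and 2. Its groups did not overlap but were separated by only 1 unit at the nearest arrays (difference -0.23, 95% interval -0.67 to 0.22, adjusted p = 0.628 with the block). Tcirg1 and Clcn7 are also used by lysosomes of many cell types. Acp5 and Ctsk are far more abundant in osteoclasts than in most other cells. The part of any cell type in the values of these genes was not tested.

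Nfatc1, the master regulator of osteoclast differentiation, had 3 probe sets. On array A (102209_at) it read 80.2 and 92.8 in Runx2-null replicates 1 and 2, against 127.6 and 139.0 in wild-type replicates 1 and 2. The groups did not overlap, and the difference of -0.59 (SE 0.15, 95% interval -0.90 to -0.27) had an adjusted p = 0.0548 in limma with the block and 0.63 without it. On array B, probe set 115215_at read 125.6 and 78.1 in Runx2-null replicates 1 and 2, against 203.3 and 145.4 in wild-type replicates 1 and 2, a difference of -0.72 (SE 0.21, adjusted p = 0.121 with the block).

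The third Nfatc1 probe set, 106921_at on array B, did not show this. It read 142.4 and 128.1 in Runx2-null replicates 1 and 2, against 122.9 and 183.3 in wild-type replicates 1 and 2, with overlapping groups (difference -0.14, 95% interval -0.67 to 0.39, adjusted p = 0.819). Within replicates 1 and 2 it was 0.19 and -0.48, and so changed sign, while the others were -0.63 and -0.55 on array A and -0.64 and -0.80 on array B. None of the 3 passed. The 102209_at difference passed with the block when the filter was set at the 60th percentile (adjusted p = 0.0392) or the pseudocount at the 40th (0.0448). Nfatc1 is also made in blood vessel and heart valve endothelium. The 7 tested endothelial markers on array A summed to 765.5 and 436.7 in Runx2-null replicates 1 and 2, against 940.8 and 598.6 in wild-type replicates 1 and 2, and were thus lower in the Runx2-null array of each number; their part in the Nfatc1 values was not tested.

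Calcr, the calcitonin receptor of mature osteoclasts, lay at the bottom of array A (probe set 101135_at), with 0.9 and 3.3 in Runx2-null replicates 1 and 2, against 2.1 and 0.5 in wild-type replicates 1 and 2. All 4 signals were below the pseudocount of 7 and between the 1.5 and 13.8 percentiles of their arrays. The probe set was below the filter on dim signals and was not tested, and it does not show how much Calcr transcript was present. It was the only one of the 13 left out by that filter.

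**Figure D3:**
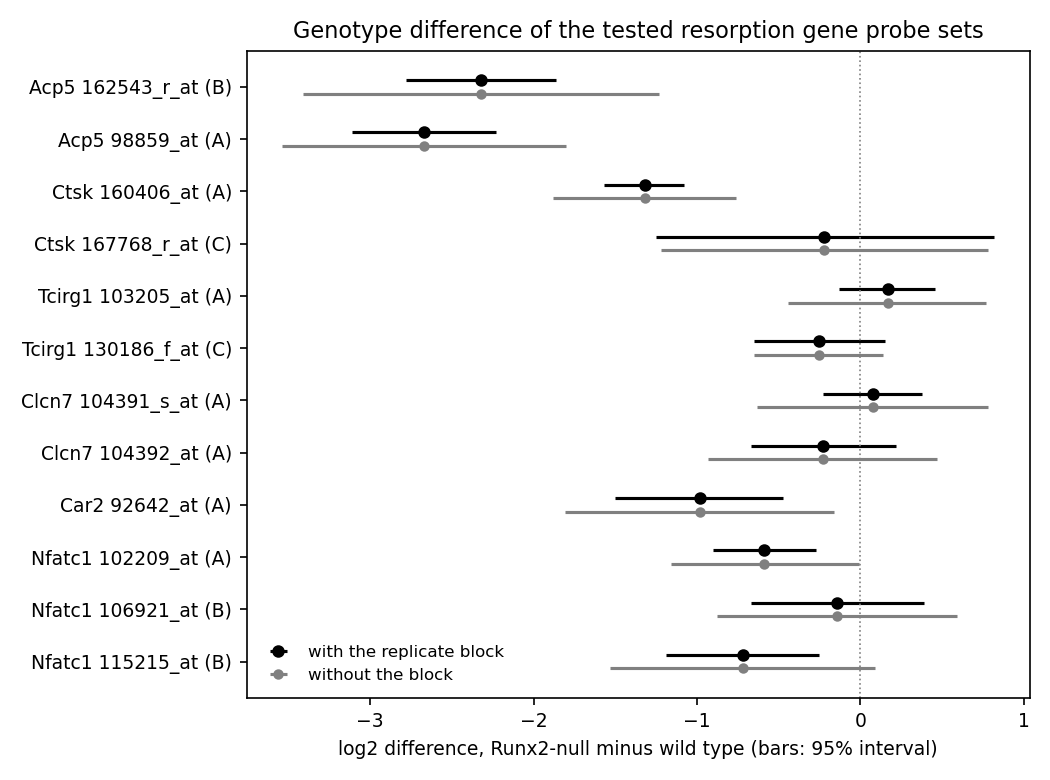
Log2 difference, Runx2-null minus wild type (horizontal axis), of the 12 tested probe sets with its 95% interval from limma, with the replicate block (black) and without it (grey); letters in parentheses are array types. The intervals of Acp5 and of Ctsk on array A end below -0.7 in either fit, and those of Tcirg1 and Clcn7 include 0. Those of Car2 and of Nfatc1 on array A end at -0.47 and -0.27 with the block. Without it they end just below 0, at -0.16 and -0.01.

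In order of their differences, with intervals from the fit with the block, Acp5 came lowest on both of its probe sets, with overlapping intervals of -3.11 to -2.23 and -2.78 to -1.86, followed by Ctsk at -1.57 to -1.08, which overlapped neither. Without the block the Ctsk interval, -1.88 to -0.76, overlapped both Acp5 intervals, -3.54 to -1.80 and -3.41 to -1.23. Car2, at -1.50 to -0.47, overlapped Ctsk, and the Nfatc1 probe sets 115215_at and 102209_at, at -1.19 to -0.25 and -0.90 to -0.27, overlapped Car2. The third Nfatc1 probe set, 106921_at at -0.67 to 0.39, lay among those of Tcirg1 and Clcn7, whose intervals on array A also included 0.

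Among other genes of osteoclast differentiation and adhesion, 12 of 24 listed genes were tested on arrays A and B. Of these 2 fell, none rose, and the 10 others missed the threshold, with a median difference of -0.30. Over all 10032 genes with a tested probe set there, 1.48% fell, 0.917% rose and the median was 0.01. Mmp9 encodes a gelatinase that osteoclasts make, and its source in this tissue was not tested. Its signals were 10.0 and 3.4 in Runx2-null replicates 1 and 2, against 812.4 and 618.1 in wild-type replicates 1 and 2 (difference -5.75, SE 0.16, adjusted p = 5.62e-11 in limma with the block, 0.0286 without it). The AP-1 subunit Fos, which osteoclast formation requires in mice, was at 39.4 in both Runx2-null replicates, against 72.6 and 85.1 in wild-type replicates 1 and 2 (difference -0.88, SE 0.20, adjusted p = 0.0348 with the block, 0.424 without it). Mmp9 passed in both fits and Fos only with the block. The Runx2-null signals of Mmp9 lay around the pseudocount of 7, so the size of its difference depends on that pseudocount. As for Acp5 on array A, the wild-type arrays brought Mmp9 past the filter on dim signals. Mmp9 had 3 probe sets and Fos 2, of which the list used 1 each.

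Like Tcirg1 and Clcn7, the rest of the acid secretion machinery gave no call, and Car2 missed the threshold narrowly (adjusted p = 0.0506 in limma with the block). A missed threshold does not show a lack of change. Of 25 listed genes of the proton pump and of lysosomal acidification, 22 were tested on A and B and 0 passed in either direction, with a median of -0.06. The lowest p-values were those of Snx10, a sorting nexin that human osteoclasts need for resorption, with 25.3 and 15.3 in Runx2-null replicates 1 and 2, against 46.9 and 52.7 in wild-type replicates 1 and 2 (difference -1.08, adjusted p = 0.0554), and of the pump subunit Atp6v1b2 (difference -0.33, adjusted p = 0.108). The list thus centred near the median of all genes. The pump subunits Atp6v1f and Atp6v0d2 were tested on array C only. As labelled there, their differences were -1.03 and 0.48, with adjusted p = 0.0507 and 0.59 in limma with the block. Clcn5, a chloride-proton exchanger chosen after its values were seen, pointed the other way (difference 0.32, adjusted p = 0.118). Ostm1, the partner subunit of the Clcn7 exchanger, was chosen after its values were seen; it read 48.2 and 21.4 in Runx2-null replicates 1 and 2, against 62.0 and 67.8 in wild-type replicates 1 and 2 (difference -0.76, adjusted p = 0.286).

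Lysosomal proteases and membrane proteins other than Ctsk centred near 0. Of 22 listed, 20 were tested, 1 fell, 0 rose and 19 did not pass, with a median of 0.07. The gene that fell was Ctsz, which encodes cathepsin Z, a carboxypeptidase, with 224.0 and 332.5 in Runx2-null replicates 1 and 2, against 296.7 and 603.7 in wild-type replicates 1 and 2 (difference -0.62, SE 0.12, adjusted p = 0.018 with the block, 0.922 without it). The Ctsz groups overlapped, and the Runx2-null array was the dimmer one within each replicate number. Of the carbonic anhydrases besides Car2, 4 of 14 listed were tested on A and B, and Car3, an isozyme abundant in muscle and fat, fell, with 25.3 and 2.1 in Runx2-null replicates 1 and 2, against 52.3 and 65.9 in wild-type replicates 1 and 2 (difference -1.94, SE 0.40, adjusted p = 0.0256 with the block, 0.517 without it). Its differences within replicates 1 and 2 were far apart, at -0.88 and -3.00. The Runx2-null signal of 2.1 lay below the pseudocount of 7, so the size of the Car3 difference depends on that pseudocount. As for Mmp9, the wild-type arrays alone were enough to bring Car3 past the filter on dim signals. The other 3 did not pass, and the median of the 4 was -0.21.

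Genes related to the 2 regulators gave no call. In the NFAT and calcineurin list, 12 of 13 genes were tested and 0 passed, with a median of 0.00. The lowest p-values in limma with the block were those of the calcium-dependent kinase Camk4 (difference 1.09, adjusted p = 0.059) and the phospholipase Plcg2 (difference -1.08, adjusted p = 0.112). These 2 pointed opposite ways. Plcg2 was dim, with 17.0 and 6.3 in Runx2-null replicates 1 and 2, against 41.4 and 22.3 in wild-type replicates 1 and 2. In the calcitonin receptor family, 4 of 7 listed genes were tested on A and B and 0 passed, with a median of -0.27. The receptor activity-modifying proteins Ramp3 (difference -0.88, adjusted p = 0.24) and Ramp1 (difference -0.39, adjusted p = 0.266) had the lowest p-values there.

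Markers of macrophages and leukocytes, the lineage from which osteoclasts arise, also centred near 0. Of 18 listed, 11 were tested, all on array A, and 0 passed, with a median of 0.02 beside 0.01 over all genes. Their summed signal was 995.8 and 645.0 in Runx2-null replicates 1 and 2, against 1067.9 and 666.2 in wild-type replicates 1 and 2, so it differed more between replicate numbers than between genotypes. Members pointed both ways: Tyrobp, an adaptor that osteoclasts also use, had a difference of -0.80 (adjusted p = 0.0575), and the complement gene C1qb had 0.70 (adjusted p = 0.0698). The other listed markers of macrophages and leukocytes were below the filter on dim signals and were not tested. Cartilage markers, the bulk of the tissue, had a median of -0.03 over 10 tested genes on A and B, of which 1, the link protein gene Hapln1, fell (difference -0.71, adjusted p = 0.00177 with the block, 0.492 without it) and 0 rose. Endothelial and erythroid markers had medians of -0.33 over 8 and -0.07 over 8 genes, with 0 passing in either list; the lowest p-values were those of Eng (difference -0.40, adjusted p = 0.0814) and Cdh5 (-0.54, 0.104), and of the globin genes Hbb-y (-0.29, 0.0961) and Hba-a1 (-0.15, 0.332).

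**Figure D4:**
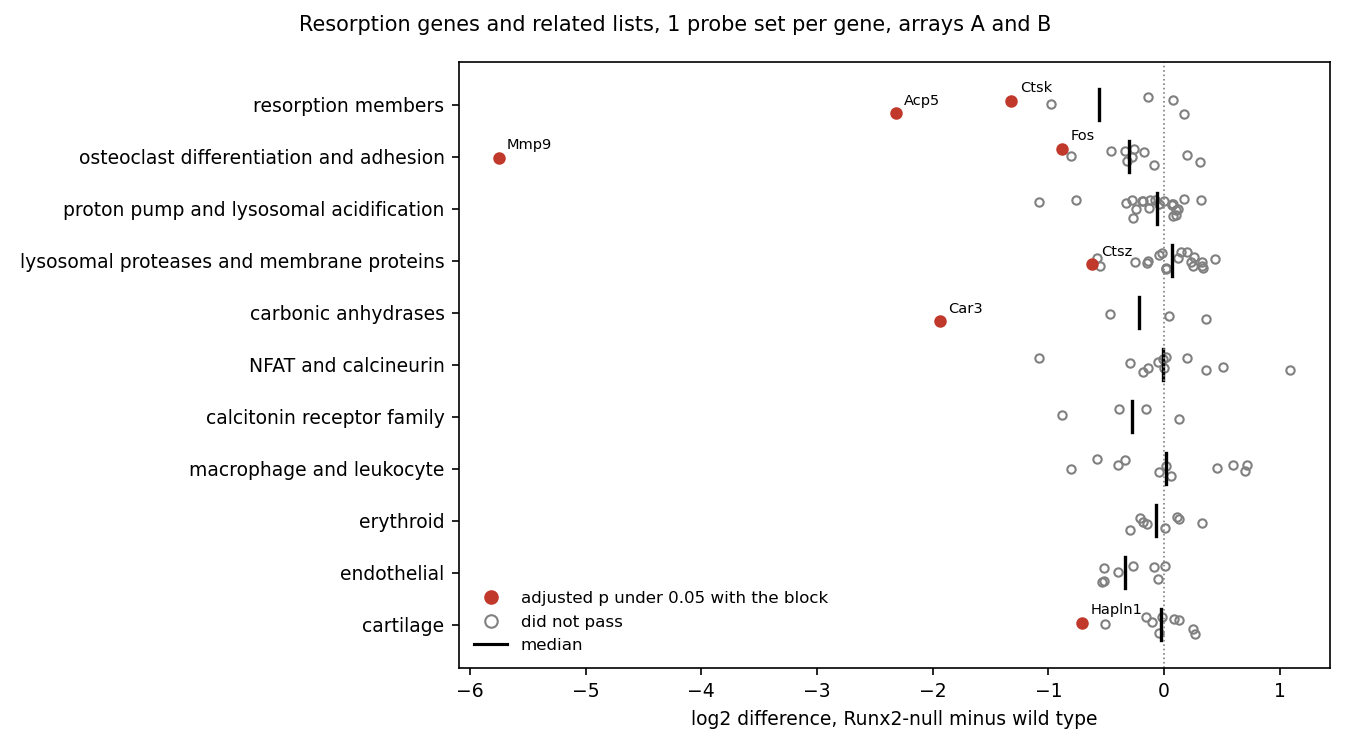
Log2 difference, Runx2-null minus wild type, of each tested gene on arrays A and B (points, 1 probe set per gene) in the resorption genes and 10 related lists; filled red points passed at adjusted p under 0.05 with the replicate block, and black bars are list medians. The 7 genes that passed were Acp5, Ctsk, Mmp9, Fos, Ctsz, Car3 and Hapln1, all lower in Runx2-null, and the list of proton pump genes centres near 0 at -0.06.

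The probe sets whose profile over the 4 arrays was most like that of Acp5 on array B were those of Sgms2, a sphingomyelin synthase, Cgref1 and Pcsk6, a proprotein convertase. Likeness was the root mean square difference between log2 signals, each centred on its own mean over 4 arrays, and came to 0.48, 0.50 and 0.55 in a search of 7068 probe sets with 1 symbol. Sgms2 read 167.2 and 173.5 in Runx2-null replicates 1 and 2, against 677.8 and 732.0 in wild-type replicates 1 and 2. For Ctsk on array A the nearest of 7007 were Slc7a7, an amino acid transporter, the Wnt inhibitor gene Apcdd1 and the homeobox gene Dlx5, with 0.13, 0.15 and 0.16. Dlx5 read 40.7 and 42.5 in Runx2-null replicates 1 and 2, against 141.0 and 115.1 in wild-type replicates 1 and 2. The neighbours of Acp5 were more distant than those of Ctsk, and 4 arrays of 2 genotypes carry little more than the size of the difference.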

How the data were processed

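Total RNA of 4 pools of humeri (E14.5; 10 µg per sample per the labels) was measured on 3 array types. The deposited values are MAS5 signals, array intensity on a linear scale, made by the authors per the submitters' processing notes; no MAS5 version was given. The 2% trimmed means of the arrays were 100.0 to 100.1, which shows a global scaling by the authors, and the planned fit added no normalization. Scanner settings came from the deposited array files. The number of arrays limits precision.

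Gene symbols came from the platform's annotation table: 29131 of 36701 had 1 symbol, 724 several and 6846 none listed. The 198 control probe sets were left out. Those over the 40th percentile of their array on at least 2 of 4 arrays were tested (23193, of which 12 of the 13 described), as log2(signal + pseudocount), the pseudocount being the 20th percentile per array type, with limma 3.58.1 under R 4.3.3 (lmFit, then eBayes with a variance trend), 1 fit per array type, Benjamini-Hochberg over all 3 types, threshold 0.05. All adjusted p-values are from these fits. The planned design had no block; the replicate number, equal to the scanner settings, was fitted as a block beside it. As a check of this pairing, the deviations from the genotype mean of arrays with the same number had correlations of 0.764 for array type A, 0.595 for B and 0.0557 for C.

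Genes and lists were chosen with earlier results of these data known. Lists used 1 probe set per gene, from A and B first, then the brightest by percentile. Named were all probe sets of the 7 genes and, per list, up to 4 genes past the threshold with the block or else the 2 with the lowest p, and the 3 nearest profiles of Acp5 and Ctsk. Outside this rule, Clcn5, Ostm1, Atp6v1f and Atp6v0d2 were named after their values were seen. The fits were tested on simulated signals. Alternatives were other normalization, pseudocounts, filters, variance models and array types, and leaving out each pool.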

Additional observations from a re-analysis of the deposited data

How the results depend on the processing

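Without the block, 6 of 23193 probe sets passed; the count was 11 with quantile normalization, 2 and 12 with the pseudocount at the 10th and 40th percentile, 11 with the 60th percentile filter, 2 without a variance trend, and 5 to 22 when 1 pool was left out (22 without wild-type replicate 1, and 11 when the Runx2-null pool of that number was left out). With the replicate block it was 505, and, in alternatives chosen after seeing the data, 343 on A and B alone, 632 with quantile normalization, 511 and 680 with these pseudocounts, 110 with no filter, 667 with the 60th percentile filter and 6 without a trend. Of the probe sets of the 7 genes, 0 passed without the block and 3 with it; in the same blocked alternatives 3, 3, 3, 5, 3, 4 and 0 passed. When 1 pool was left out, 0 to 1 passed, the 1 being Acp5 98859_at without wild-type replicate 2 (adjusted p = 0.00117). Such a fit takes its spread from the genotype that keeps 2 pools, and the lone pool is assumed to vary alike.

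Acp5 (both probe sets) and Ctsk on array A were lower in Runx2-null in all 21 alternatives run, at -3.03 to -2.02, -2.92 to -1.72 and -1.47 to -1.17. The block, the filters, the variance trend and the choice of array types cannot change a difference. As the groups did not overlap, leaving out 1 pool or pairing by number could not turn its sign. The constant sign is therefore no separate support. Signs turned for 3 probe sets near 0 when 1 pool was left out, with ranges of -0.64 to 0.21 for Ctsk 167768_r_at, -0.14 to 0.29 for Clcn7 104391_s_at (-0.13 without wild-type replicate 2) and -0.41 to 0.12 for Nfatc1 106921_at. Within replicate 1 Ctsk 167768_r_at was at 0.14 and Nfatc1 106921_at at 0.19. The cause of these shifts was not tested. With 2 pools per genotype and no detection calls, changes of dim probe sets such as Calcr cannot be measured here.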
